A study of Rattus norvegicus with 9 samples.

Results

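The 7 genes described here encode the subunits of the NMDA receptor, Grin1, Grin2a, Grin2b, Grin2c, Grin2d, Grin3a and Grin3b, measured in rat blood, in hippocampus (HC) and in prefrontal cortex (PFC). They were chosen by gene symbol and not by a rule on their values, though with earlier results of these data known. Each had 1 probe set, so the family took 7 of the 14506 genes that had a probe set with exactly 1 symbol and 7 of the 29214 probe sets with values. The animals were 3 male Wistar rats, numbered 2, 5 and 7, which were untreated and, per the study's methods, arrived at 6 weeks of age and were kept for a further week. Blood, HC and PFC of each rat gave 1 array per tissue, 9 arrays in all on the Rat Gene 1.0 ST platform, so that each array of a tissue comes from its own animal. HC and PFC were punched from frozen coronal sections, and blood was drawn into tubes with an RNA stabilizer and extracted with a kit of its own, so the tissue and the RNA extraction cannot be told apart in any comparison of brain with blood.

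NMDA receptors are ion channels opened by glutamate together with glycine or D-serine, and they pass calcium only when the membrane is depolarized at the same time. This makes them detectors of coincident activity at synapses, and in the hippocampus they are known for their part in long-term potentiation and spatial memory. Every receptor holds the obligatory GluN1 subunit, encoded by Grin1, which binds glycine. The GluN2 subunits, encoded by Grin2a to Grin2d, bind glutamate and set how long the channel stays open, and the GluN3 subunits, encoded by Grin3a and Grin3b, bind glycine and lower calcium entry.

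In the rat assembly GRCr8 the genes lie on 6 chromosomes. Grin1 is at chr3:28501836-28528754, Grin2a at chr10:6136458-6560003, Grin2b at chr4:170297811-170775420, Grin2c at chr10:100987410-101006064, Grin2d at chr1:105443317-105483400, Grin3a at chr5:68802333-69001880 and Grin3b at chr7:10381495-10387817. Of the 7, the RefSeq promoter table used here held 4. The 250 bases before the transcription start are given below for the obligatory subunit Grin1 and for Grin2c and Grin3a, the GluN2 and GluN3 genes with the widest differences between HC and PFC further on. All 3 are read from the minus strand of GRCr8, 5′ to 3′, at chr3:28528755-28529004, chr10:101005139-101005388 and chr5:69001559-69001808 in that order, and all are in lower case because no motif searched lay in them.
Grin1: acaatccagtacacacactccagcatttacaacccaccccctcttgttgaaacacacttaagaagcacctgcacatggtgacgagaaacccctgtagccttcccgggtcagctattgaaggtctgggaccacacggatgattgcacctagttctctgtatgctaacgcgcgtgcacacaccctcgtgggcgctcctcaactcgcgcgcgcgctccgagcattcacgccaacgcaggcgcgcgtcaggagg
Grin2c: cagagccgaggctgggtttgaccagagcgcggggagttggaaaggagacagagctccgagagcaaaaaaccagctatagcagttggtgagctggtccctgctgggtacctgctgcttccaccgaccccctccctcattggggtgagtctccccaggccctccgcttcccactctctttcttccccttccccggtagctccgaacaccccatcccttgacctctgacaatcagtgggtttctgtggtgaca
Grin3a: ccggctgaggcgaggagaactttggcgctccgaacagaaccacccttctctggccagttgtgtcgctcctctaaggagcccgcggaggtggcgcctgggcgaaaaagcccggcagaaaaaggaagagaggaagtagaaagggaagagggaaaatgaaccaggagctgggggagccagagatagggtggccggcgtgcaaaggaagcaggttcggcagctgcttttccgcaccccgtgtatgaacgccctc
Just after the start of Grin1, at chr3:28528715-28528734, the transcript begins with a stretch that holds 2 overlapping matches, given here with the matched bases in capitals.
Grin1 site: aggaaGCGGGGGCGGtggga
The capitals span GCGGGGGCG, the site of the activity-induced Egr transcription factors, which begins 26 bases into the transcript, and GGGCGG, the GC box bound by Sp1, which begins at base 30 and shares bases with it. Grin2c, Grin2d and Grin3a held neither, which says only that these letters are not in that window. Both strands of the 300 bases around each start were searched. An Egr site stood in 2.73% and a GC box in 33.1% of the 33469 promoters of the table. The core of the REST site, CAGCACC, and the cAMP response element TGACGTCA, which stood in 6.78% and 1.83% of them, had no match in the 4 promoters of the family that the table held. The promoter of Grin1 held 25 CpG dinucleotides, more than 83.4% of all promoters, and was 59.7% G and C, against medians of 7 and 51.7%. That of Grin3a held 17 CpG and those of Grin2c and Grin2d 11 each. The starts that the table uses for Grin2c, Grin2d and Grin3a lie inside the annotated span of the gene, so their sequences and counts are those of that start only.

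All values are RMA values (robust multi-array averages), read as log2, so that 1 unit is a doubling of signal. Presence in a tissue follows the study's cut-off on the level alone, a mean over 3 arrays above 6.2. The study also set a threshold on a detection p-value, which was not used here, so its own presence calls are narrower. A second, lower line, here named the detection limit, was the level that 95% of 1298 probe sets of smell, pheromone and taste receptors did not exceed on average, at 5.53 in blood, 4.88 in HC and 4.85 in PFC. Below it a mean gives only a bound. Levels of different probe sets depend on their probes and were not compared with each other, and the number of arrays limits the precision of every value.

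The tissues carried the markers of their labels. Of 37 measured blood cell markers 35 were present in blood, 3 in HC and 2 in PFC, and of 21 neuronal markers 6, 20 and 21. Of 5 measured hippocampal field markers, Prox1, C1ql2, Wfs1 and Zbtb20 were called higher in HC than in PFC and 1 was not called. HC arrays also differed from PFC in markers of choroid plexus and myelin. Ttr, the transthyretin gene of the choroid plexus, was 6.07 higher (log2) in HC. Of 5 choroid plexus markers only 1 was present in HC, and 2 were called higher there than in PFC (median difference 0.56). The summed level of 7 oligodendrocyte markers ran from 12.95 to 13.25 in HC and from 12.02 to 12.62 in PFC. The summed level of 8 red cell markers was 9.03 to 9.43 in HC, 9.75 to 10.42 in PFC and 15.26 to 15.40 in blood. Over all probe sets, arrays of a tissue correlated with Spearman's rho of 0.957 to 0.968 in blood and 0.995 to 0.996 in both brain regions.

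The first question was which subunit genes could be seen in blood. None of the 7 was present there, against 46.9% of all probe sets, and the 21 values of the family ran from 4.03 to 6.13, all below the cut-off. In HC 4 genes were present (Grin1, Grin2a, Grin2b and Grin2c, against 47.2% of all probe sets) and in PFC 5, the same ones and Grin3a (against 47.1%). In blood the means of Grin1 and Grin2d alone lay above the detection limit, both by less than the spread between the rats. In HC and PFC the mean of Grin3b alone lay below it.

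**Figure D1:**
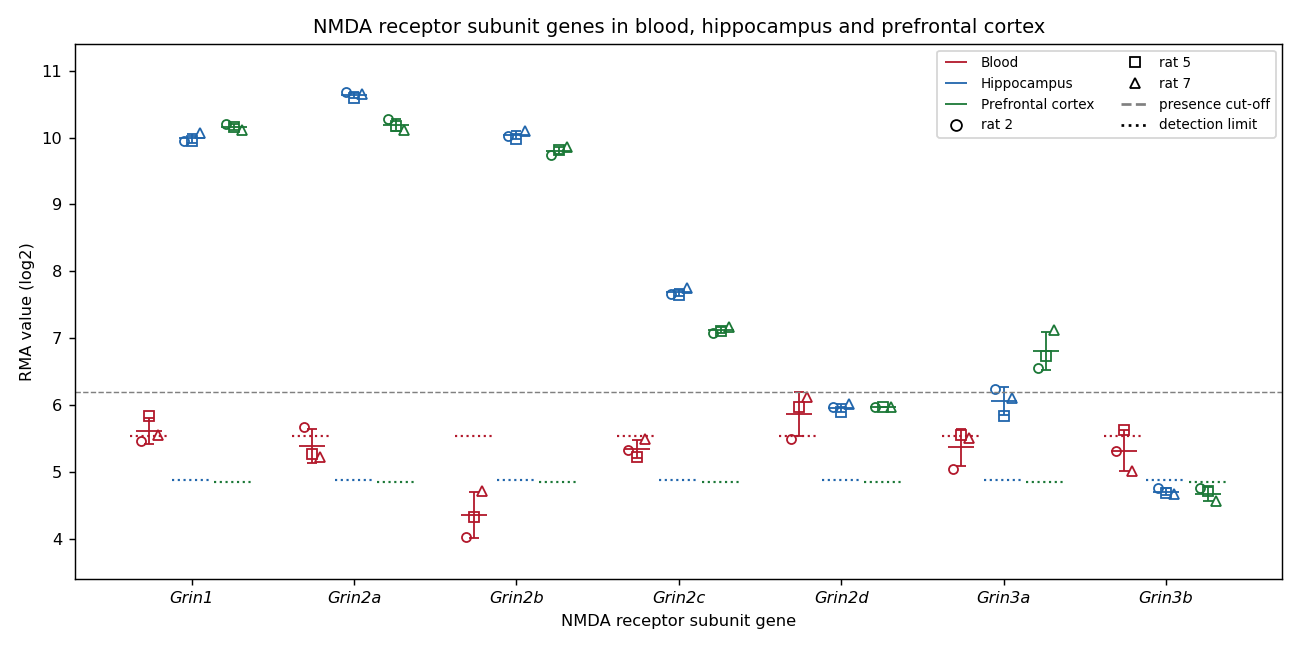
RMA values (log2, y axis) of the 7 NMDA receptor subunit genes (x axis) on each of the 9 arrays, with symbols for the rats, colours for the tissues, horizontal bars and error bars for mean ± SD (n = 3), the dashed line at the presence cut-off of 6.2 and dotted lines at the detection limit of each tissue. Grin1, Grin2a, Grin2b and Grin2c lie above the cut-off on all brain arrays and below it on all blood arrays, Grin3a lies above it on all 3 PFC arrays, and Grin2d and Grin3b lie below it on every array.

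Against blood, 5 of the 7 genes were called higher in HC (limma, adjusted p under 0.05), where 29.0% of all probe sets were, and the same 5 were called higher in PFC, where 28.7% were. These were Grin1, Grin2a, Grin2b, Grin2c and Grin3a. The median difference of the 7 genes was 2.34 (log2) in HC and 1.77 in PFC, or 2.15 and 1.58 with values at the detection limit where they fell below it, beside medians of -0.30 and -0.31 over all probe sets. Both comparisons share the 3 blood arrays, so their values stand side by side and are not independent. In bulk tissue, fewer cells of a type and less RNA per cell cannot be told apart.

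Grin1, the obligatory subunit, was at 5.46, 5.83 and 5.55 in the blood of rats 2, 5 and 7, at 9.95, 9.94 and 10.07 in HC and at 10.20, 10.15 and 10.12 in PFC. The brain arrays stood far above the blood arrays in every rat, and the PFC values stood just above the HC values with no overlap. HC exceeded blood by 4.37 ± 0.11 (log2 difference ± SE, n = 3 per group, adjusted p = 1.05e-09 from limma) and PFC by 4.54 ± 0.11 (adjusted p = 8.52e-10). With the blood array of rat 2 raised to the detection limit, HC was 20.4-fold and PFC 22.9-fold higher. The first of these differences was higher than or equal to that of 98.5% of all probe sets.

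Grin2a encodes GluN2A, which gives fast closing channels and is known to rise as the brain matures. It was at 5.68, 5.26 and 5.22 in blood, 10.68, 10.59 and 10.65 in HC and 10.28, 10.17 and 10.11 in PFC. The 3 tissues did not overlap, with HC highest in each rat. With blood at its limit, Grin2a was at least 33.3-fold higher in HC and at least 24.3-fold higher in PFC. The tested differences, with blood as measured, were 5.25 and 4.80 (log2, adjusted p = 9.08e-10 and 1.49e-09 from limma).

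Grin2b encodes GluN2B, the slower closing subunit that binds the kinase CaMKII and prevails early in development. It was at 4.03, 4.32 and 4.71 in blood, all below the detection limit, at 10.03, 9.98 and 10.10 in HC and at 9.75, 9.81 and 9.86 in PFC. Again HC was highest in each rat without overlap. With blood at its limit, Grin2b was at least 22.7-fold higher in HC and at least 19.3-fold higher in PFC. The tested differences, with blood as measured, were 5.68 and 5.45 (log2, adjusted p = 1.53e-09 and 1.91e-09 from limma).

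Grin2c encodes GluN2C, known above all from cerebellar granule cells and also found in some astrocytes and interneurons. It was at 5.32, 5.22 and 5.49 in blood, 7.66, 7.65 and 7.74 in HC and 7.07, 7.11 and 7.16 in PFC. Its tissues were again apart on every array. With blood at its limit, Grin2c was at least 4.45-fold higher in HC and at least 2.99-fold higher in PFC. The tested differences, with blood as measured, were 2.34 and 1.77 (log2, adjusted p = 2.13e-08 and 1.45e-07 from limma). Of 5 markers of cerebellar granule cells, 4 lay above the detection limit in both regions and 2, Neurod1 and Zic1, were present. Their summed level ran from 9.03 to 9.09 in HC and from 8.40 to 8.55 in PFC, and Neurod1, a transcription factor also known from the dentate gyrus, was called higher in HC than in PFC (1.45, adjusted p = 0.000623, limma). Gabra6, the defining one, was below the limit with means of 4.35 in HC and 4.47 in PFC. Their part in the Grin2c values was not tested.

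Grin3a, which encodes the GluN3A subunit of young synapses, was at 5.05, 5.54 and 5.51 in blood, 6.25, 5.84 and 6.10 in HC and 6.56, 6.74 and 7.12 in PFC. PFC was above HC and HC above blood in each rat, and the rats spread more than for the subunits above, with an SD of 0.20 in HC and 0.29 in PFC against 0.04 to 0.09 for Grin1, Grin2a, Grin2b and Grin2c in both regions. With blood at its limit, Grin3a was at least 1.44-fold higher in HC and at least 2.41-fold higher in PFC. The tested differences, with blood as measured, were 0.69 in HC (log2, adjusted p = 0.00728 from limma) and 1.44 in PFC (adjusted p = 7.68e-05). Without rat 2 the HC call was lost (log2 difference 0.44, adjusted p = 0.0626).

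The other two genes were never present. Grin2d, which encodes the very slow GluN2D subunit of early brain and of some interneurons, was at 5.49, 5.97 and 6.13 in blood, 5.97, 5.89 and 6.02 in HC and 5.97 on each PFC array. The same value, 5.97 to all digits given, stood on 5 of its 9 arrays, and no comparison called it (adjusted p = 0.566 in HC and 0.522 in PFC against blood, limma). Grin3b, known from motor neurons, was at 5.31, 5.63 and 5.01 in blood, 4.76, 4.68 and 4.67 in HC and 4.76, 4.71 and 4.56 in PFC. Its mean was below the detection limit in all 3 tissues, so its call as lower than blood in HC and PFC, which 46.5% and 47.0% of all probe sets shared, is given without a fold.

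The scale of brain against blood depended on how the arrays were aligned. When each array was centred on 11 measured housekeeping genes, all log2 differences rose by 0.38 in HC and by 0.52 in PFC against blood and fell by 0.14 in HC against PFC. The 5 genes higher in brain were then called too. Grin2d was called higher than blood (0.47, adjusted p = 0.0381 in HC and 0.63, adjusted p = 0.0107 in PFC, limma) and Grin3b was no longer called lower (-0.24, adjusted p = 0.387 and -0.12, adjusted p = 0.67).

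The second question was how HC and PFC differ. Grin2c was the 1 gene of the 7 called between them (higher in HC, where 2.11% of all probe sets were called higher and 2.33% lower). In the fit of all 9 arrays the residual spread of each gene includes the blood arrays, on which the subunit genes varied with an SD of 0.14 to 0.34. Fitted on the 6 brain arrays alone, 4 of the 7 were called, Grin2a, Grin2b and Grin2c as higher in HC and Grin3a as higher in PFC, where 6.11% of all probe sets were called higher and 6.36% lower in HC. With a further rat left out, 2 arrays per region, these became 2 of 7 calls without rat 2, 1 without rat 5 and 1 without rat 7, beside 5.31%, 2.77% and 3.84% of all probe sets called in either direction. The HC and PFC arrays did not overlap for 5 genes, beside 29.9% of all probe sets. The median difference of the family was 0.03, beside -0.00 over all probe sets.

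Grin2c was higher in HC by 0.59 in rat 2, 0.54 in rat 5 and 0.58 in rat 7. The mean difference of 0.57 ± 0.096 (log2, SE, n = 3 per region, 1.49-fold) had a 95% interval from 0.35 to 0.79 and an adjusted p of 0.00856 (limma, 9 arrays), or 0.00105 with brain arrays alone, where it was called without any 1 rat too (0.0296 to 0.0492). It was higher than or equal to that of 97.4% of all probe sets. The size held when a rat or array was left out (0.54 to 0.59), but in the fit of all tissues the call was lost without rat 2 (adjusted p = 0.173), rat 5 (0.0869) or rat 7 (0.0947), without the HC array of rat 7 (0.0547) and without the PFC array of rat 5 (0.0507). Centred on the housekeeping genes it was 0.43 (adjusted p = 0.0443).

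Grin2a was higher in HC by 0.40, 0.42 and 0.54 in rats 2, 5 and 7. Its mean difference was 0.45 ± 0.13 (SE, n = 3 per region, 95% interval 0.16 to 0.74), with an adjusted p of 0.103 in the fit of 9 arrays and of 0.00519 with brain arrays alone (limma). The latter became 0.0977 without rat 5 and 0.0833 without rat 7. Grin2b was higher in HC by 0.28, 0.17 and 0.24, a mean of 0.23 ± 0.15 (SE, n = 3 per region, 95% interval -0.11 to 0.58). Its adjusted p was 0.743 in the fit of 9 arrays and 0.0427 with brain arrays alone (limma). The latter call was lost with the rat as a block (0.0732), with centring on the housekeeping genes (difference 0.09, adjusted p = 0.272) and without any of the 3 rats (0.144 to 0.195).

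Grin3a went the other way and was lower in HC by 0.31, 0.90 and 1.02 in rats 2, 5 and 7. The mean difference was -0.74 ± 0.19 (SE, n = 3 per region, 95% interval -1.16 to -0.33), so PFC stood 1.68-fold higher, and 1.54% of all probe sets had a difference as low or lower. The adjusted p was 0.0607 in the fit of 9 arrays and 0.034 with brain arrays alone (limma). With probe sets absent from all tissues left out of the fit it was 0.0322. Grin3a passed that filter through its PFC mean alone (6.81, against 6.06 in HC and 5.37 in blood), so this value adds no support. Leaving out rat 2, 5 or 7 from the brain arrays gave 0.082, 0.235 and 0.186, with PFC 0.96, 0.67 and 0.60 higher.

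Grin1 was lower in HC by 0.25, 0.21 and 0.05. Its mean difference of -0.17 ± 0.11 (SE, n = 3 per region) was not called, with an adjusted p of 0.734 in the fit of 9 arrays and 0.12 with brain arrays alone (limma), and the 95% interval of the former ran from -0.42 to 0.08. With brain arrays alone and centring on the housekeeping genes it was called lower in HC (-0.31, adjusted p = 0.0224). That fit called 23.4% of all probe sets, and the centring itself moved every HC minus PFC difference by -0.14. For Grin2d and Grin3b the intervals ran from -0.35 to 0.32 and from -0.30 to 0.36.

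**Figure D2:**
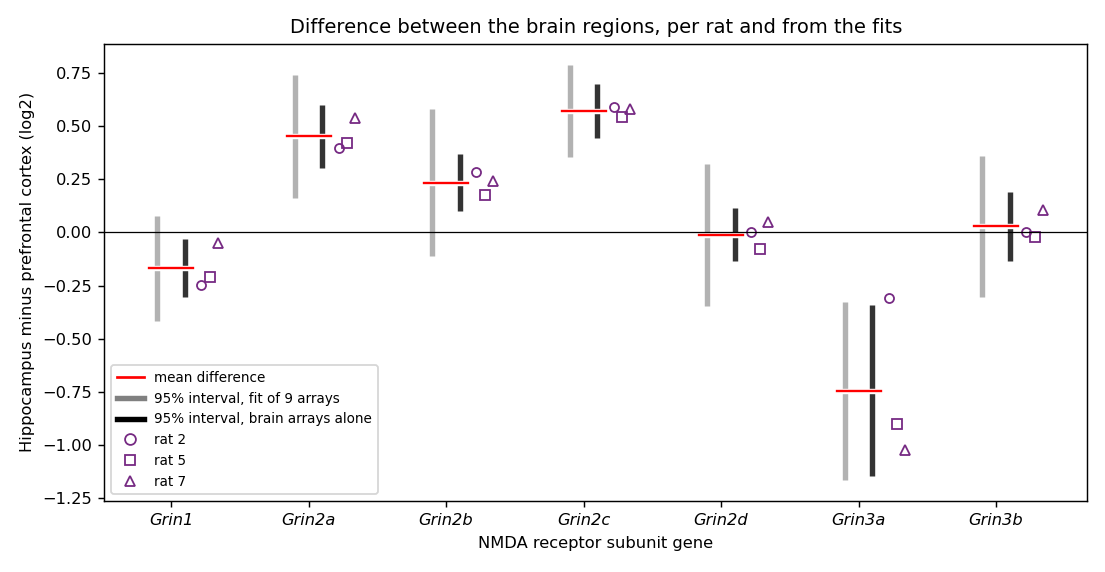
HC minus PFC difference (log2, y axis) of each NMDA receptor subunit gene (x axis), as the mean (red line), the 95% interval of the limma fit of all 9 arrays (grey bar) and of the 6 brain arrays alone (black bar), and the value in each rat (purple symbols). Grin2a, Grin2b and Grin2c lie above 0 in all 3 rats, Grin1 and Grin3a below 0 in all 3, and Grin2d and Grin3b on both sides of it or on it.

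GluN2A and GluN2B share many receptors and are often described by their balance, so the Grin2a value minus the Grin2b value was taken within each array. The difference itself depends on both probe sets and carries no ratio of transcripts, but it can be compared between tissues. It was 0.65, 0.61 and 0.55 (log2) in the HC of rats 2, 5 and 7 and 0.53, 0.36 and 0.25 in their PFC. The regions did not overlap, and HC was higher by 0.11, 0.24 and 0.30 in the 3 rats. The mean shift was 0.22, from 0.60 ± 0.049 in HC to 0.38 ± 0.14 in PFC (SD, n = 3), with p = 0.1 in a two-sided exact permutation test that took the arrays as unpaired, the smallest p that 3 arrays against 3 allow. Exact sign flips within the 3 rats gave p = 0.25, the smallest they can give.

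**Figure D3:**
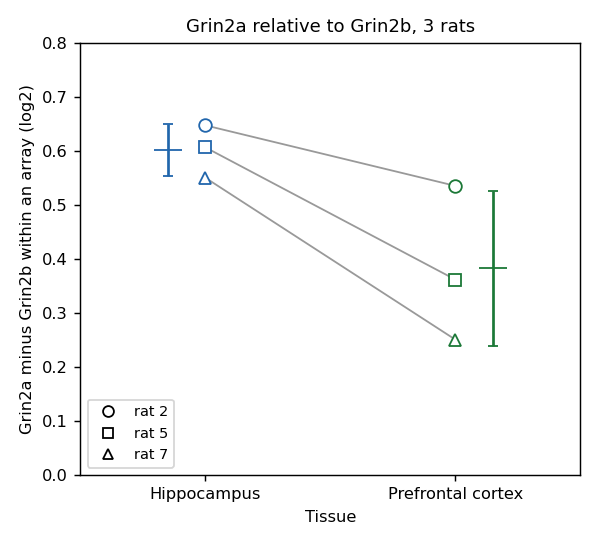
Grin2a minus Grin2b within an array (log2, y axis) in HC and PFC (x axis), with a symbol and a grey line for each of the 3 rats and mean ± SD beside them. The value is higher in HC than in PFC in each rat, by 0.11, 0.24 and 0.30.

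Several markers of cell types moved with these differences, and their part in them was not tested. Of all probe sets, 29.9% did not overlap between HC and PFC in either direction, 2.11% were called higher in HC and 2.33% lower. All 7 measured oligodendrocyte markers were higher in HC without overlap (median 0.86, 4 called). Of 8 astrocyte markers 6 were higher without overlap (median 0.26), and Gfap, the intermediate filament of astrocytes, was called (1.55, adjusted p = 0.00095, limma). Of 10 markers of neurons in general none was called (median -0.20) and 7 were lower in HC without overlap. Of 7 interneuron markers 4 were lower and 1 was higher in HC without overlap (median -0.17). Among them Vip (-1.17, adjusted p = 0.00675) and Sst (-0.68, adjusted p = 0.0136) were called lower in HC, in the direction of Grin3a, and the other 5 were not called. All 4 measured markers of excitatory neurons were higher in HC without overlap (median 0.47), of which Neurod6 was called (1.02, adjusted p = 0.0264). The excitatory markers Slc17a7 and Camk2a and the astrocyte markers Slc1a2 and Slc1a3 are also among the partner genes below, so these are the same values.

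Across the 9 arrays, the genes whose pattern came closest to a subunit were found by the root mean square difference of values centred per gene, over 14505 other genes. All genes share these arrays and their brain to blood contrast, so this is a description with no test. For Grin1 the closest was Dlg4, which encodes the scaffold PSD-95 (0.093, log2), then Cntnap1 and Ptprn. Grin2a lay closest to Gabrg1 (0.14), Pak3 and Nalcn, and Grin2b to Fam107a (0.133), Btbd3 and Prex2. Grin2c lay closest to Gpd2 (0.055), Kcnab2 and Gab1, and Grin3a to Magi3 (0.173), Anxa5 and Igsf3.

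The receptor works within a larger machinery, for which 56 partner genes in 4 groups were listed and 52 measured. Against blood, 47 of the 52 were called higher in HC (29.0% of all probe sets) and 47 in PFC (28.7%), with median differences of 2.28 and 2.39 (log2). Of the 47, 46 were the same genes, and Dao, Creb1 and Grina were called lower in both regions. Between HC and PFC 7 were called, 1 higher and 6 lower in HC, beside 2.11% and 2.33% of all probe sets (median difference over the 52 genes 0.01). With brain arrays alone 12 were called higher and 10 lower, beside 6.11% and 6.36%.

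Glutamate and its co-agonists are supplied and cleared by transporters and enzymes, and of their 10 measured genes none was called between HC and PFC in the fit of 9 arrays. The widest differences were those of the glycine transporter Slc6a9 (0.59, adjusted p = 0.214, or 0.012 with brain arrays alone, limma), the neuronal glutamate transporter Slc1a1 (0.47, adjusted p = 0.0921, or 0.00275) and the glial one Slc1a3 (0.31, adjusted p = 0.98, or 0.00653). With brain arrays alone these 3 and Slc1a2 (0.21, adjusted p = 0.0347, limma) were called higher in HC. Against blood, the widest were the glial glutamate transporter Slc1a2, at 12.09 to 12.18 in HC, 11.93 to 11.94 in PFC and 4.79 to 5.47 in blood, and the vesicular transporter Slc17a7, at 11.46 to 11.64, 11.34 to 11.36 and 5.47 to 5.79. Both stood above the blood arrays by more than 5 units on every brain array. Dao, which breaks down D-serine, was below the detection limit in all 3 tissues, so its call is given without a fold.

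The scaffolds that anchor and carry the receptor were all called higher than blood in both regions, 17 of 17, beside 29.0% of all probe sets in HC and 28.7% in PFC. Of the 17, 3 were called lower in HC than in PFC, beside 2.33% of all probe sets. Lin7a, part of a complex that carries GluN2B along dendrites, was at 6.96, 7.03 and 7.03 in HC and 8.26, 8.20 and 8.29 in PFC (-1.25 ± 0.18, SE, n = 3 per region, adjusted p = 0.00291, limma). Dlg1, which encodes the scaffold SAP97, was at 9.10, 8.99 and 8.94 in HC and 10.02, 10.15 and 10.06 in PFC (-1.06 ± 0.1, adjusted p = 0.000248). For both genes PFC exceeded HC in each rat by far more than the rats differed. Homer1, which links the receptor complex to metabotropic receptors, was at 9.60, 9.499 and 9.49 in HC and 10.08, 10.25 and 10.24 in PFC (-0.66 ± 0.13, adjusted p = 0.0161). This call was lost under centring on the housekeeping genes (-0.80, adjusted p = 0.0566) and without any of the rats (0.0715 to 0.246), and that of Lin7a without rat 5 (0.095) or rat 7 (0.0763). Dlg4 did not differ by more than its error (-0.02 ± 0.11). Against blood the widest were Dlg2, at 10.63 to 10.89 in brain and 4.37 to 5.40 in blood, and the auxiliary subunit Neto1, at 10.02 to 10.82 and 4.36 to 5.05.

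Among the 15 kinase and phosphatase genes, the 4 of CaMKII, the kinase that calcium through the receptor activates, did not share a direction. Camk2d was at 7.06, 7.06 and 7.12 in HC and 8.40, 8.63 and 8.85 in PFC (-1.55 ± 0.14, SE, n = 3 per region, adjusted p = 0.000197, limma). Camk2g was at 9.31, 9.31 and 9.26 in HC and 10.16, 9.99 and 9.96 in PFC (-0.74 ± 0.12, adjusted p = 0.00556, lost without rat 2 at 0.145 and rat 7 at 0.0947). Camk2a and Camk2b, the forms most tied to neurons, were at 12.71 to 12.84 and 10.63 to 10.71 in HC and at 12.48 to 12.54 and 10.11 to 10.15 in PFC. Their differences of 0.26 and 0.53 were not called in the fit of 9 arrays (adjusted p = 0.802 and 0.163) and were called with brain arrays alone (0.0313 and 0.000916). Ppp1r9b, which encodes the spine scaffold spinophilin and is named for being the 1 partner called higher in HC after the values were seen, was at 11.06, 11.12 and 11.15 in HC and 10.60, 10.66 and 10.64 in PFC (0.48 ± 0.088, adjusted p = 0.0135). That call was lost without any of the 3 rats (0.13 to 0.167) and under centring on the housekeeping genes (0.34, adjusted p = 0.154).

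Of the 10 measured genes that carry the calcium signal on, Camk4, a kinase that acts in the nucleus, was called lower in HC (8.13, 7.99 and 8.11 against 9.20, 8.996 and 9.07 in PFC, -1.01 ± 0.14, SE, n = 3 per region, adjusted p = 0.00249, limma, lost without rat 2 at 0.106). The next widest were Rasgrf2 (0.48, adjusted p = 0.206), an activator of Ras, and Calm2 (-0.32, adjusted p = 0.546), a calmodulin gene, both of which were called with brain arrays alone (adjusted p = 0.00491 and 0.0427, limma). Rasgrf1 and Rasgrf2 differed most from blood, at 9.71 to 9.85 and 9.27 to 9.86 in brain against 5.73 to 6.28 and 5.48 to 6.197. Creb1, a transcription factor of this pathway, was at 7.57 to 7.96 in blood and 7.29 to 7.41 in brain, and its direction flipped under centring on the housekeeping genes. Its lower call was also lost without rat 2 (adjusted p = 0.0715 in HC and 0.088 in PFC, limma), without rat 7 (0.108 and 0.089), without the HC array of rat 2 (0.0552) or rat 5 (0.0677) in HC, without the PFC array of rat 2 in PFC (0.0636), with the 2 tissues fitted alone (0.0536 and 0.0519) and under centring on the median (0.0638 and 0.0557). Grina, an NMDA receptor associated protein that is no channel subunit despite its symbol, was at 11.36 to 11.44 in blood, 10.44 to 10.51 in HC and 10.13 to 10.21 in PFC.

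**Figure D4:**
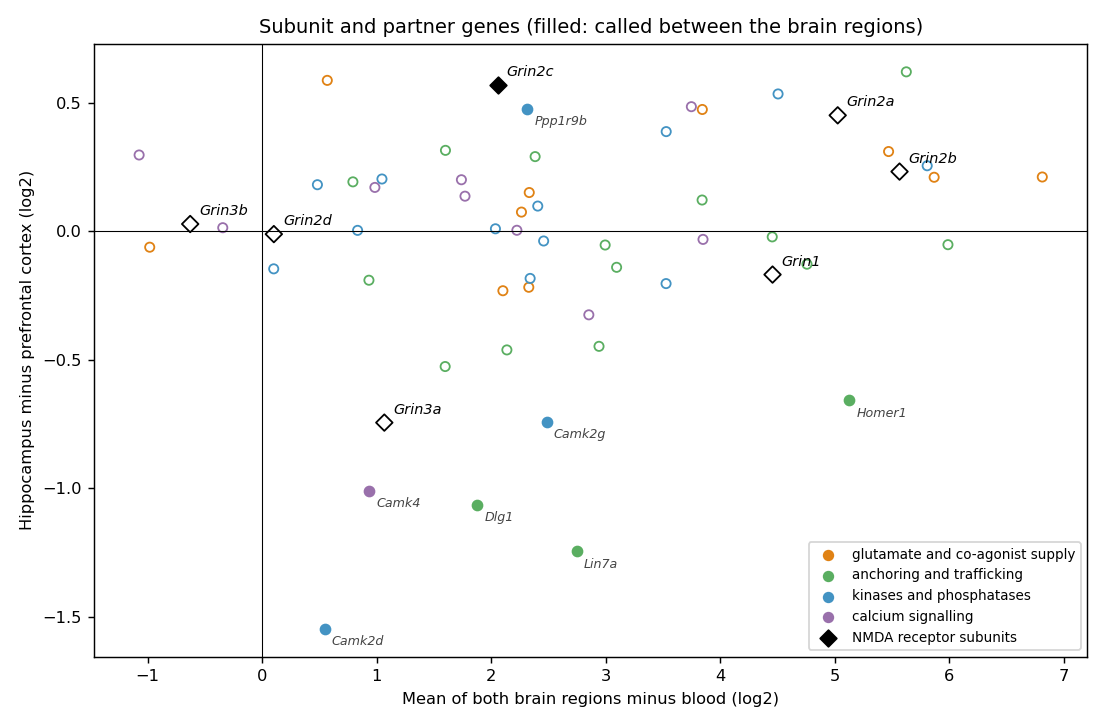
Mean of both brain regions minus blood (log2, x axis) against HC minus PFC (log2, y axis) for the 7 NMDA receptor subunit genes (black diamonds) and 52 partner genes (circles coloured by group), filled where limma on all 9 arrays called the HC minus PFC difference. Most points lie to the right of 0 on the x axis, and the 6 partners called lower in HC, from Homer1 at -0.66 to Camk2d at -1.55, are labelled in the lower part of the plot, as is Grin3a at -0.74.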

How the data were processed

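RNA from 9 samples, blood, HC and PFC of rats 2, 5 and 7, had been hybridized to whole-transcript arrays. Quantile normalization and summary per probe set by RMA, which the submitters' processing notes also name, were done by the authors. The deposited values are taken as log2, since they ran from 1.53 to 14.01. The authors' detection p-values were not used here. The labels speak of 6 rats and the methods of 4 with 1 sample omitted, and the arrays carry 3 animal numbers. The labels name no hybridization batch. A probe set had 1 identical value on the 3 arrays of a tissue in 14 cases for blood, 542 for HC and 478 for PFC, and 1 of 29215 probe sets had no value.

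The limma package (3.58.1, R 4.3.3) was fitted to all 29214 probe sets with values, with the 3 tissues as 1 factor and neither filter nor block, and differences were called at a Benjamini-Hochberg adjusted p under 0.05. All adjusted p-values are from limma. For a probe set below the detection limit in blood, the blood mean was taken over arrays raised to the limit where they fell below it, which gave the folds marked at least. The adjusted p-values beside these folds belong to the differences with blood as measured. Symbols came from the array annotation, updated through RefSeq of GRCr8, and of several probe sets of a gene the brightest on average stood for it. Of the probe sets, 15310 had exactly 1 symbol, 323 several and 13581 none. Same-numbered tissues are 1 animal's, as the labels state. The deviations of same-animal arrays from their tissue means correlated by 0.09 to 0.23 between HC and PFC and by -0.05 to 0.05 with blood.

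The members and gene lists were chosen with earlier results of these data known. Named were all members, in each of the 4 partner lists the 3 genes with the widest HC minus PFC difference and the 2 with the widest brain minus blood difference, the 3 most alike genes per member present in any tissue, and partner genes outside this rule where a count was small (Dao, Creb1, Grina, Dlg4 and Ppp1r9b, named after their values were seen). Of the 56 partner genes listed, 4 are not reported here. The fit was also run on simulated arrays with planted HC minus PFC differences, which checks the procedure only and adds no support to the differences given here. Plots used Python 3.11.15 and matplotlib 3.10.9. The alternatives covered the filter, the block, the scaling, the variance model, the tissues fitted, the detection limit, the threshold and leaving out arrays or rats.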

Additional observations from a re-analysis of the deposited data

Results flagged for a closer look

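The excess of Grin2c over blood differed between the brain regions. It was 2.34 (log2) in HC and 1.77 in PFC as measured, and the difference of 0.57 between them is the HC minus PFC contrast itself (SE 0.096, adjusted p = 0.00856 from limma). The blood arrays cancel in this difference but not in its SE and adjusted p, and it was positive in 3 of 3 rats. In the fit of all tissues the call was lost without rat 2, 5 or 7 (adjusted p = 0.173, 0.0869 and 0.0947, limma). No other subunit gene passed this test in the fit of 9 arrays, while with brain arrays alone Grin2a, Grin2b and Grin3a were called as well.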

How the results depend on the processing

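Against blood, Grin1, Grin2a, Grin2b and Grin2c were called higher in all 84 alternative values per brain region (4 genes under 21 settings). Not all of these settings could change the result. Each gene had 1 probe set, so averaging its probe sets left its values as they were. Leaving out an array of the other brain region left the difference itself unchanged. Between HC and PFC the count of subunit genes called, 1 of 7, moved with several settings. It was 2 when only probe sets present in a tissue were fitted, 4 with brain arrays alone, 4 with values raised to the detection limit, 0 with a log2 difference of at least 1 required, 0 to 3 over the fits leaving out an array or a rat (3 without the blood array of rat 2, with Grin2a and Grin3a called as well), 4 with brain arrays alone centred on the housekeeping genes, and, with brain arrays alone, 2 without rat 2 and 1 without rat 5 or rat 7. The added call among probe sets present in a tissue was that of Grin3a, which was kept there through its PFC mean alone. Brain arrays alone centred on the housekeeping genes called 23.4% of all probe sets. The fits of brain arrays alone with a block, with centring or with a rat left out were chosen after seeing the data. The 7 partner genes called became 22, 16, 4, 3 to 14 (14 without the blood array of rat 5), 24 and, with brain arrays alone without rat 2 or rat 7, 12 or 11 (8 without rat 5), while the filter gave 10 and centring on the housekeeping genes left 5, 0 higher and 5 lower. Raising values to the limit gives dim probe sets no spread, so its counts (10244 probe sets in all, against 1296) are inflated by construction. Over all probe sets brain arrays alone gave 3644 calls, an adjusted p under 0.01 gave 688, and leaving out arrays gave 414 to 2127. Without rat 2, 5 or 7 the count was 466, 535 or 414, and without the blood array of rat 5 it was 2127.

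With the replicate block by rat, which the labels' animal numbers pair, the counts of subunit genes called were as without it. Against blood 6 were called in HC and 6 in PFC, 5 higher and 1 lower in each, and 1 was called higher in HC than in PFC. Partner genes called in either direction were 50, 50 and 7. Without the block, 29.0% of all probe sets were called higher and 46.5% lower in HC against blood. In PFC against blood these were 28.7% and 47.0%, and in HC against PFC 2.11% and 2.33%. With brain arrays alone the block left 3 subunit genes (Grin2b was lost, adjusted p = 0.0732) and 18 partner genes, beside 10.2% of all probe sets.

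With the detection limit as the cut-off 2 subunit genes were present in blood, and with a cut-off of 7.2 PFC had 3. Centring on the housekeeping genes turned the split of all calls from 8463 higher and 13581 lower to 10876 and 6508 in HC against blood, from 8372 and 13719 to 12043 and 4898 in PFC against blood, and from 616 and 680 to 293 and 797 in HC against PFC. Signs reversed for Grin2d and Grin3b, neither of which was called in the comparison concerned, and for Creb1 under centring on the housekeeping genes (0.041 in HC and 0.17 in PFC against blood, not called). Grin2d ran from -0.095 to 0.228 in HC and from -0.078 to 0.239 in PFC against blood and from -0.040 to 0.023 in HC against PFC over the fits leaving out an array or a rat. Grin3b ran from -0.030 to 0.071 in HC against PFC there, was -0.011 without rat 7 in brain arrays alone and was -0.11 under centring on the housekeeping genes, with all arrays or with brain arrays alone. The shift of Grin2a against Grin2b was 0.15 to 0.30 over the rats and arrays left out, and the sign flips within rats, added after seeing the data, use the same shift of 0.22. The causes were not tested. Grin3b is limited by its mean below the detection limit in all 3 tissues, and 3 arrays per tissue set the width of the intervals given.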
